A study of Mus musculus with 15 samples.

Results

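The tibialis anterior muscle of untreated wild-type (WT) mice was described from 4 mice, out of 15 in the study, chosen by their labels alone. All 15 mice were males of the 129Pas strain aged 7 weeks. The other groups were tamoxifen-treated WT mice (WT + TAM, n = 4), untreated mice without a working copy of *Mtm1* (Mtm1-/y, n = 4) and tamoxifen-treated mutants (Mtm1-/y + TAM, n = 3). *Mtm1* encodes myotubularin, a phosphoinositide phosphatase. The dose and route of tamoxifen were not stated in the labels. No groups were compared. The labels number the libraries of a group as replicates, which are taken here as separate mice, and name no batch. The 11 other libraries served only to look again at the spread within a group.

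The tibialis anterior lifts the foot and in the mouse is built mainly of fast fibres. A fibre contracts when thick filaments of myosin pull on thin filaments of actin, troponin and tropomyosin. Calcium that leaves the sarcoplasmic reticulum through the ryanodine receptor starts this movement, and SERCA pumps bring the calcium back. The energy comes from creatine phosphate, from glycolysis fed by glycogen, and from mitochondria. Fast and slow fibres use different members of some of these gene families, such as those of myosin, the troponins and the SERCA pumps. A bulk muscle sample also holds RNA of vessels, connective tissue, nerve and immune cells, and fewer cells of a type and less RNA per cell cannot be told apart in it.

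Raw counts per gene came from stranded mRNA libraries. Total counts ranged from 22854090 in replicate 3 to 45823277 in replicate 1, and 3 counts, the limit that a count of 0 allows, corresponded to 0.0655 to 0.131 CPM (counts of a gene scaled to a library total that is the same for all mice). Between mice, the correlation of log2(CPM + 1) over genes (Pearson's r) was 0.99 to 0.994 in the 6 pairs, which describes genes and not replicates. Levels of different genes are given as TPM (length-scaled transcript shares), in which the counts of a gene are divided by the length of its exons and scaled so that all libraries have the same sum. A gene's own spread between mice is given in CPM scaled by TMM factors, since TPM are shares and a rise of the leading genes in a mouse lowers all others there. Errors are SD over the 4 mice, and lists of 4 values run from replicate 1 to replicate 4. *Mtm1* itself was low and steady, at 14.5, 14.5, 14 and 14.8 CPM, with a coefficient of variation (CV) of 2.18%.

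A small number of genes, mainly of contraction, calcium handling, energy supply and the mitochondrial genome, held a large share of the muscle's messenger RNA. On the TPM scale 16 genes held 50% of the total, and the 10 highest genes held 39.2 ± 1.3%. On the scale of raw counts 51 genes held 50%, and the number was 38, 52, 59 and 58 in the single mice. The low number belonged to replicate 1, in which the 25 highest genes held 44.6% of counts against 40.2, 40.4 and 41.4% in the others. At the other end, 5509 of the 30672 genes in the table had no count in the 4 mice, and 17190 had at least 10 counts in all. A mean of at least 1 TPM was reached by 12376 genes, of at least 100 TPM by 699, of at least 1000 TPM by 66 and of at least 10000 TPM by 17.

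The highest gene per length was *Acta1*, which encodes skeletal muscle alpha-actin, the backbone of the thin filament. Its level was 94113, 81920.1, 78643 and 78164 TPM, so that every mouse lay above the highest value of any other gene. The thin filament also supplied *Tnnt3*, *Tnnc2* and *Tnni2*, the fast troponins that tie calcium to contraction, at 34714 ± 685 TPM, 31315 ± 1459 TPM and 13743 ± 445 TPM. From the thick filament came *Mylpf*, the fast regulatory light chain, at 36869 ± 3287 TPM, and *Myh4*, the heavy chain of type IIb fibres, at 23625 ± 4804 TPM. *Myh4* had the widest relative range of the first 20 genes, with 30066, 23806, 18612 and 22016 TPM. Calcium handling was represented by *Atp2a1*, the fast SERCA pump, at 30898 ± 1348 TPM, by the calcium buffer *Pvalb* at 29621 ± 2531 TPM and by *Casq1*, which stores calcium in the sarcoplasmic reticulum, at 7344 ± 618 TPM.

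Energy supply filled much of the remaining top 25. *Ckm*, the muscle creatine kinase, had the smallest relative spread in TPM of the first 10 genes, with 23582, 24068, 24325 and 23782 TPM. In CPM its CV was 4.95%, above the 4.03% of *mt-Co1*. The glycolytic enzymes *Aldoa*, *Eno3* and *Pgam2* reached 16335 ± 589 TPM, 14565 ± 227 TPM and 8889 ± 417 TPM, and *Pygm*, which releases glucose from glycogen, reached 7186 ± 158 TPM. A further 6 of the 25 were encoded by the mitochondrial genome, led by *mt-Cytb* of complex III with 45256, 47012, 46176 and 45229 TPM and *mt-Nd1* of complex I with 43102, 43899.8, 42887 and 42361 TPM. The rest of the 25 were *Actn3*, *Tpm1*, *Actc1*, *Mybpc2* and *Tcap*, all parts of the sarcomere, at 9731, 8224, 7921, 7461 and 6715 TPM. Of the 25 pairs of neighbours in the ranking, counting *Tcap* and the next gene *Mb*, 16 had overlapping ranges and 12 kept their order in all 4 mice. *Mylpf* and *Tnnt3*, for example, lay at 33769 to 41268 and 33916 to 35359.7 TPM and do not differ beyond their spread. *Acta1*, *mt-Cytb* and *mt-Nd1* each kept their place in all 4 mice with all exons as the length.

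**Figure D1:**
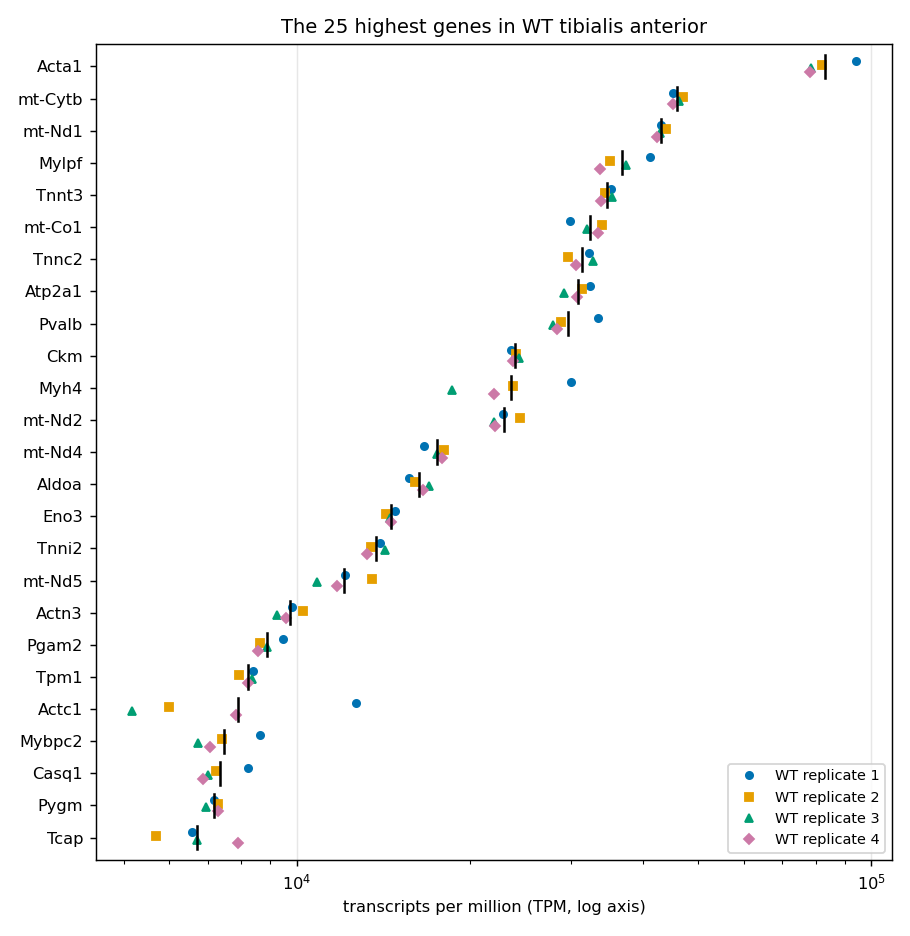
The 25 genes highest in mean TPM (log axis), from the highest at the top, with a symbol for each WT mouse and a black line at the mean of 4. *Acta1* stands clear of the rest, neighbours below *mt-Nd1* mostly overlap, and the values of *Actc1* and *Myh4* are spread widest, with replicate 1 highest in both.

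Ranking by raw counts gave a different order, since a long transcript yields more reads. *Myh4* came first with 5.24 ± 1.08% of all counts, *Acta1* with 4.71 ± 0.45% and *Atp2a1* with 3.96 ± 0.17% followed, and then *Ckm* with 2.57 ± 0.0494%. *Ttn*, which encodes titin, the longest protein of the sarcomere, took 1.33 ± 0.11% of counts but stood at 309 ± 22.3 TPM. *Mylpf*, with 1.44 ± 0.143% of counts, was its close neighbour by counts and stood at 36869 ± 3287 TPM. With the longest annotated transcript in place of all exons as the length, 24 of the 25 genes stayed in the top 25, but their order changed. *Acta1* stayed first, *Mylpf* and *Tnnt3* ranked 2 and 3, and *mt-Cytb* and *mt-Nd1* ranked 4 and 5. *Aldoa* and *Tpm1* then had means of 25231 and 15171 TPM, in place of 16335 and 8224 TPM.

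Some of the highest genes belonged to none of the functional lists. *Mb*, the oxygen store myoglobin, reached 4828, 6615, 7476 and 6583 TPM and was lowest in replicate 1. It shares 34% of its 50-base windows with the gene model *Gm49540*, so its level is uncertain. *Car3*, a carbonic anhydrase abundant in muscle, followed with 3116 ± 499.9 TPM, then the selenoprotein *Selenow* with 2648 ± 128 TPM and *H19*, a maternally expressed imprinted long non-coding RNA, with 1482 ± 117 TPM. *Ndrg2*, *Sh3bgr*, *Hsp90ab1* and *Apobec2* lay between 788 and 1333 TPM.

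The 250 bases before the annotated start of *Acta1*, the highest gene, and of *Ckm*, the highest nuclear gene of energy supply, are shown as examples of strong muscle promoters, from the RefSeq table for GRCm38.p6. The capitals mark the E-box CAGCTG, a type of site that MyoD family factors are known to use, the CArG box that serum response factor is known to bind (CCAAATATGG here), and TATAAA, known as the core of the TATA box. The window of *Acta1* lies at chr8:123894776-123895025, minus strand:
*Acta1*: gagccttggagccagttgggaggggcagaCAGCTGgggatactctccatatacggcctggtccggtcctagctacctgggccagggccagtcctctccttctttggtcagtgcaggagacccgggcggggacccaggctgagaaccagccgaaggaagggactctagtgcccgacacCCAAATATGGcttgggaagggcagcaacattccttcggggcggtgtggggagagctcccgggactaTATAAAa
The window of *Ckm* lies at chr7:19410844-19411093, plus strand:
*Ckm*: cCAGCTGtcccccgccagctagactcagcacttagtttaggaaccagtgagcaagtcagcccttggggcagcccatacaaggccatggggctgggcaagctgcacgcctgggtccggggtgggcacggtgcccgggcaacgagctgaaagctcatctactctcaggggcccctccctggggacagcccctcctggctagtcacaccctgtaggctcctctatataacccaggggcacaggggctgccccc
In the *Acta1* window CAGCTG began 221 bases, the CArG box 73 bases and TATAAA 7 bases before the start, and in the *Ckm* window CAGCTG began 249 bases before the start. These distances hold for the RefSeq start alone. In the GENCODE annotation used for lengths, the gene starts at chr8:123894751 for *Acta1* and at chr7:19404776 for *Ckm*. Both strands were searched over these 250 bases in all promoters that matched a gene of the count table. CAGCTG was in 8 of 15 (53.3%) of those available for the 25 highest genes, in 23 of 67 (34.3%) for the contractile lists and in 2041 of 15716 (13%) overall. A CArG box was in 3 of 15 (20%), 7 of 67 (10.4%) and 189 of 15716 (1.2%), and a MEF2 site in 3 of 15 (20%), 13 of 67 (19.4%) and 328 of 15716 (2.09%). TATAAA was in 2 of 15 (13.3%), 16 of 67 (23.9%) and 1362 of 15716 (8.67%). A match describes letters in a window and does not show that a factor binds there.

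By function, the contractile apparatus took the largest share, with 30.5, 27.7, 26.5 and 26.7% of all counts over its 82 genes. It was divided into thin filament genes at 12.2 ± 0.704% of counts, myosin chains and their binding proteins at 9.59 ± 1.26%, and titin, Z-disc and M-band genes at 6.03 ± 0.194%. *Myh4* alone held 54.6% of the counts of the myosin list, and *Acta1* 38.5% of the thin filament list. Replicate 1 was highest for both of these lists and lowest for the Z-disc list, with 5.88, 6.32, 6.0 and 5.93% of counts there. Besides *Actn3* and *Tcap*, that list held the anchoring proteins *Myoz1* at 3591 ± 56.3 TPM, *Des* (desmin) at 2148 ± 219.9 TPM and *Myot* at 1396 ± 111 TPM. *Fhl1*, a LIM protein of the sarcomere, was low in replicate 1, with 494, 1606, 1401 and 1481 TPM.

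Genes of excitation-contraction coupling and calcium, 37 in number, held 8.04, 7.49, 7.14 and 7.35% of counts. After *Atp2a1*, *Pvalb* and *Casq1* came *Tmem38a*, a counter-ion channel, with 1766 ± 81.8 TPM, *Srl* with 1362 ± 136 TPM and *Hrc*, another calcium binder of the reticulum, with 1230.3 ± 77.8 TPM. *Cacna1s*, the voltage sensor, was at 537, 575, 486 and 555 TPM and *Ryr1*, the release channel, at 532, 562, 465 and 566 TPM, and their ranges overlapped. Of the 34 genes with at least 10 CPM in this list, 25 were highest in replicate 1, against 33% of all such genes.

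Glycolysis held 4.53, 4.52, 4.72 and 4.67% of counts, glycogen metabolism 1.57 ± 0.0311% and the creatine and adenine nucleotide genes 3.1, 3.12, 3.24 and 3.11%, of which *Ckm* was 81.7%. These shares differed little between mice. *Pfkm*, the muscle form of the committed enzyme of glycolysis, was at 3897, 4819, 4741 and 5050.1 TPM and lowest in replicate 1, and *Slc2a4*, the insulin-sensitive glucose transporter, was at 511 ± 14 TPM. The oxidative enzymes were divided among many genes of middling level. The 82 nuclear genes of the respiratory chain held 2.57, 2.62, 2.98 and 2.84% of counts, led per length by *Atp5a1* at 3036 ± 113 TPM, *Atp5b* at 2367 ± 166 TPM and *Cox6a2* at 2054 ± 219.6 TPM. The citric acid cycle with pyruvate dehydrogenase held 1.41 ± 0.0776%. Fatty acid genes held 0.477 ± 0.0315%, with *Acadvl*, an enzyme of long-chain oxidation, at 479 ± 46.7 TPM. Mitochondrial carriers held 1.1 ± 0.0371%, with *Slc25a4*, the adenine nucleotide carrier, at 5020.3 ± 156 TPM. For the respiratory chain replicates 3 and 4 lay above replicates 1 and 2.

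Protein turnover and matrix took small shares. Translation factors held 0.642 ± 0.019% of counts, with the muscle form *Eef1a2* at 2050.1 ± 32.2 TPM. Genes of the proteasome and ubiquitin held 0.382, 0.442, 0.479 and 0.448%, lowest in replicate 1, where 24 of the 37 genes had their lowest CPM, against 29.1% of all genes with at least 10 CPM. Extracellular matrix genes held 0.429, 0.494, 0.583 and 0.612%, in which replicate 4 was highest. *Sparc*, a collagen-binding matrix protein, led with 362, 441, 535 and 583 TPM, before *Col4a1* of the basement membrane with 154, 221, 258 and 286 TPM and the fibrillar collagen *Col3a1* with 132, 137, 201 and 184 TPM. Of the 36 matrix genes with at least 10 CPM, 26 were highest in replicate 4 and 1 was highest in replicate 1, against 19.7% and 33% of all genes at that level. In all, the 555 listed or mitochondrially encoded genes held 60.2 ± 1.63% of counts and 73.5 ± 1.41% of TPM.

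**Figure D2:**
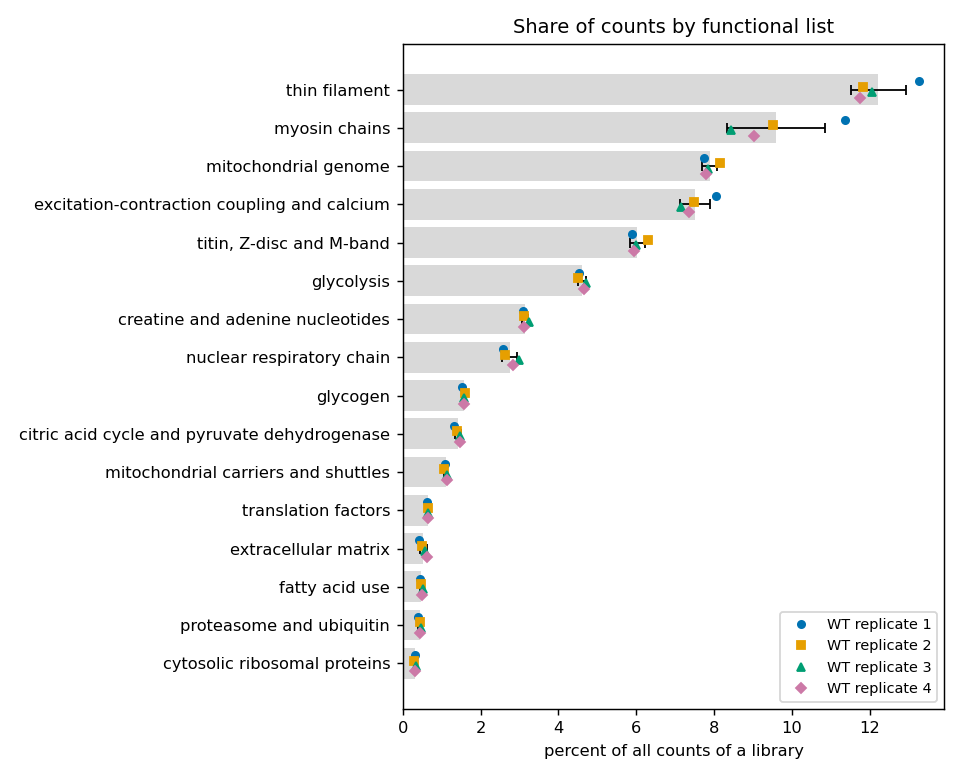
Share of all counts of a library held by each functional list (percent), with a bar for the mean of 4 WT mice, an error bar of 1 SD and a symbol for each mouse. Thin filament genes and myosin chains lead, and replicate 1 lies above the other mice in both and in the excitation-contraction list.

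The mitochondrial genome contributed 7.75, 8.16, 7.85 and 7.8% of counts and 17.6 ± 0.53% of TPM. Its genes encode core subunits of complexes I, III, IV and V. *mt-Cytb*, *mt-Nd1*, *mt-Co1*, *mt-Nd2*, *mt-Nd4* and *mt-Nd5* were among the 25 highest genes, and *mt-Nd6*, which lies on the other strand, reached 685, 782, 461 and 884 TPM. The other 5 of the 12 protein-coding genes in the table, *mt-Co2*, *mt-Co3*, *mt-Atp6*, *mt-Nd3* and *mt-Nd4l*, had 0 counts in every mouse. Of the 50-base windows of these 5 transcripts, 98 to 100% also occurred in another annotated transcript, while the other mitochondrial genes shared at most 62.2%. The nuclear copies *Gm10925*, *Gm28437*, *Gm28438* and *Gm28661* on chromosome 1 held 0 to 24 counts in the 4 mice. A 0 for these 5 genes cannot be read as absence of the transcript. The shares of the mitochondrial genome given above leave out any transcript of these genes and may be too low. *mt-Co1* and *mt-Nd4*, which were counted, share 51.1 and 62.2% of their windows, so their levels are uncertain too. The ribosomal RNAs of the mitochondrion were low in these poly(A)-selected libraries, with *mt-Rnr1* at 7.75, 10.4, 25.5 and 10.1 TPM and *mt-Rnr2* at 10.6, 9.26, 29 and 7.41 TPM, both highest in replicate 3.

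Genes of the cytosolic ribosome took 0.309 ± 0.0194% of counts over 83 genes. Their levels parted along the same property. The 26 ribosomal protein genes with under 25% of their windows shared had a median of 22.8 TPM, and the 57 with 25% or more had a median of 3.13 TPM. *Rpl3l*, a striated muscle form of ribosomal protein L3 with no shared window, was the highest at 899.8 ± 39.3 TPM, and *Rpl3*, which shares 58.4%, was at 1.99 ± 0.357 TPM. *Rpl4* and *Rpl8*, sharing 16.4 and 6.49%, reached 550.5 and 437 TPM. *Rplp1* reached 735 ± 84.8 TPM although 60% was shared. The functional lists as a whole include the 83 ribosomal protein genes. These are 26 of the 419 listed genes under 25% and 57 of the 107 at 25% or more. The median was 148 TPM for the 419 and 18.5 TPM for the 107, a contrast that partly repeats the ribosomal one. Among the 107 was *Cpt1b*, which carries fatty acids into muscle mitochondria, at 8.25 ± 0.97 TPM with 93% shared, mostly with the overlapping gene model *Gm44502*. *Gapdh*, an enzyme of glycolysis, was another, at 15.2 ± 2.01 TPM with 27.8% shared. The labels do not say how reads that match several genes were counted, so the levels of such genes are uncertain.

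Fast forms exceeded slow forms in each of the families below. Of the 4 adult myosin heavy chains, *Myh4* (type IIb) held 87.8, 84.1, 81.2 and 83.4% of the family's TPM, *Myh1* (IIx) 11.5, 14.4, 17.3 and 15.3%, *Myh2* (IIa) 0.641, 1.55, 1.48 and 1.24% and *Myh7* (I, slow) 0.00227, 0.00199, 0.00196 and 0.00314%. Replicate 1 had the most *Myh4* and the least *Myh2*, and replicate 3 the least *Myh4* and the most *Myh1*. The level of *Myh1* was 3948, 4075, 3959 and 4042 TPM while *Myh2* was at 219, 438, 339 and 326 TPM. *Myh4*, *Myh1* and *Myh2* share 18.9, 32.1 and 28.9% of their windows with other genes, mostly with each other, so the division among them is less certain than their sum. *Myh7* shares 28.25% of its windows, with *Myh6* as the first partner, so its level is uncertain too.

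For the troponins the slow member held 0.00912 ± 0.00183% (*Tnnt1*), 0.0111 ± 0.00288% (*Tnni1*) and 0.0155 ± 0.0046% (*Tnnc1*) of the fast and slow sum. *Tnnt1*, for instance, was at 2.64, 2.61, 3.89 and 3.52 TPM beside 35204, 34377, 35359.7 and 33916 TPM for *Tnnt3*. *Tnnc2* shares 55% of its windows, chiefly with the overlapping gene *Ube2c*. The slow regulatory light chain *Myl2* held 0.0143 ± 0.0078% and the slow essential light chain *Myl3* 0.745 ± 0.329% of their pairs. *Myl3* was at 15.6, 21.4, 42.7 and 27.7 TPM, lowest in replicate 1 and highest in replicate 3, the reverse of *Myh4*. Slow fibre forms of calcium handling were also minor, with *Atp2a2* at 0.0638 ± 0.00791% of the SERCA pair and *Casq2* at 0.574 ± 0.0369% of the calsequestrins. *Sln* and *Pln*, the small inhibitors of SERCA, lay at 2.85 ± 0.205 TPM and 1.96 ± 0.417 TPM. *Pln* shares 60.3% of its windows with other genes, so its level is uncertain. The calsarcin of slow fibres *Myoz2* was at 52.8 ± 10.6 TPM and that of fast fibres, *Myoz1*, at 3591 ± 56.3 TPM.

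A few families were mixed. *Mybpc1*, the slow form of myosin binding protein C, held 17.4 ± 1.64% beside *Mybpc2*, at 1525, 1700.1, 1499 and 1510.01 TPM. *Actn2* held 9.11 ± 1.63% of the alpha-actinins beside *Actn3*, whose protein is confined to fast fibres in muscle. *Tpm2*, a tropomyosin of both fibre types, held 40.3 ± 2.35% of the tropomyosins, *Tpm1* 59.7 ± 2.35% and the slow *Tpm3* 0.0486 ± 0.00639%. By the longest transcript *Tpm1* had 71.2% and *Tpm2* 28.7%. *Ldhb*, the lactate dehydrogenase subunit of oxidative tissue, held 3.23 ± 0.646% beside *Ldha*. Cytochrome oxidase subunits were mostly the muscle forms, with *Cox6a2* at 98.1 ± 0.262%, *Cox8b* at 97.6 ± 0.571% and *Cox7a1* at 75 ± 2.26% of their pairs. Summed over the lists, the 24 fast fibre genes came to 292774, 268146, 265466 and 263380 TPM and the 18 slow fibre genes to 2310.3, 3105, 2900.3 and 2632 TPM, 56.9% of which was *Mybpc1*. Replicate 1 was highest in the fast sum and lowest in the slow sum, to which *Hspb6*, *Ankrd2* and *Csrp3* also contribute, with 554, 68 and 18.5 TPM in replicate 1 and means of 727, 183 and 96.7 TPM. The slow genes did not all run this way. Of the 9 with at least 10 CPM, 5 were lowest in replicate 1, against 29.1% of all genes at that level. *Casq2* was highest there, with 48.6, 43.3, 42.1 and 35.9 TPM, and *Mybpc1* was not lowest there.

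**Figure D3:**
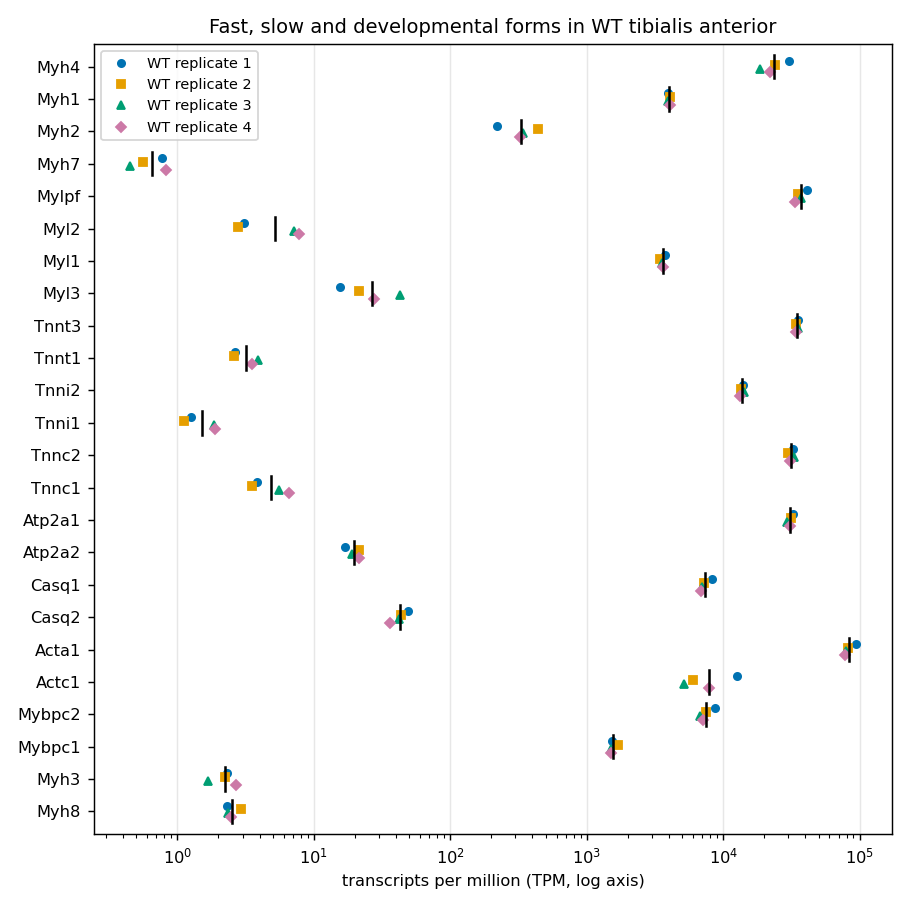
Levels of fast, slow and developmental forms (TPM, log axis), family by family, with a symbol for each WT mouse and a black line at the mean. The slow forms plotted lie at 0.45 to 48.6 TPM apart from *Mybpc1*, and the fast forms plotted at 219 TPM or above.

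Developmental and cardiac forms were nearly silent with a single exception. *Myh3*, the embryonic heavy chain, was at 2.3, 2.22, 1.69 and 2.69 TPM and *Myh8*, the perinatal heavy chain, at 2.3, 2.94, 2.33 and 2.48 TPM. *Chrng*, the fetal acetylcholine receptor subunit, held 1.14 ± 0.122% of its pair with the adult subunit *Chrne*. *Nppb* had no count, and *Mybpc3* and *Myl7* had at most 2 counts in a mouse. The exception was *Actc1*, the cardiac alpha-actin that fetal muscle also makes, at 12690.5, 5986, 5168 and 7838 TPM, which was 11.9, 6.81, 6.17 and 9.11% of the sarcomeric actin sum. It was highest in replicate 1 and lowest in replicate 3. The antisense gene *C130080G10Rik*, which starts on the opposite strand of chromosome 2 beyond the 5′ end of *Actc1* (GRCm38 chr2:114054335-114064868 against chr2:114047282-114053548), was at 29.8, 9.17, 6.69 and 15.3 CPM and was likewise highest in replicate 1, followed by replicate 4, 2 and 3, the order of the mice for *Actc1*.

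Regulators of muscle identity were present at far lower levels. *Myf6*, the myogenic factor of mature fibres, was the highest of its family with 126, 142, 154 and 166 TPM, *Myod1* was at 11.6, 21.3, 17 and 10.6, *Myog* at 7.82, 16.2, 14.1 and 17.2 and *Myf5* at 1.3, 2.09, 1.97 and 2.21 TPM. *Myod1* was higher in replicates 2 and 3 than in 1 and 4, and *Myog* was low in replicate 1. The MEF2 factors *Mef2d* and *Mef2c* were at 117 ± 10.3 TPM and 107 ± 6.61 TPM, *Mef2a* at 22.9 ± 0.616 TPM and *Mef2b* at 1.06 ± 0.374 TPM. *Tbx15*, a factor linked to glycolytic fibres, was at 229, 172, 180.2 and 169 TPM, the large Maf factors *Maf* and *Mafa* at 45.4 and 38.1 TPM, and *Eya1* at 7.93 TPM. *Sox6*, a repressor of slow genes, was at 29 ± 0.963 TPM and *Prox1*, which is tied to the slow programme, at 0.733 ± 0.0946 TPM. *Ppargc1a*, a coactivator of mitochondrial biogenesis, was at 11.5 ± 1.37 TPM. The median biological CV of the 28 regulators with at least 10 CPM was 9.68%.

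Among genes that mark position in the limb *Hoxc10* led. It reached 77.8, 81.9, 86.1 and 87.4 TPM, 56.3% of the sum of its list, and *Hoxa10*, *Hoxc11* and *Hoxa11* were at 14.1, 9.94 and 5.38 TPM. *Pitx1*, a hindlimb factor, was at 0.669 ± 0.357 TPM and *Tbx4*, another, at 1.45 ± 0.414 TPM, whereas the forelimb factor *Tbx5* had at most 1 count in a mouse. *Hoxc12* had none. Among secreted factors *Vegfa* led with 169, 174, 163 and 151 TPM. *Vegfb* was at 111 ± 15.7 TPM, *Fndc5* at 67.6 ± 8.06 TPM and *Mstn*, the brake on muscle growth, at 60.3, 49.1, 50.4 and 48.9 TPM. *Fst*, which binds myostatin, was at 1.01 ± 0.229 TPM, and *Il6*, *Fgf21*, *Gdf15* and *Lif* stayed under 0.5 TPM in all mice. *H19* held 77.9% of the TPM of a short list of 10 long non-coding RNAs, before *Malat1* with 168, 93.9, 156 and 159 and *Neat1* with 93.8, 111, 132 and 190.4 TPM.

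Transcripts of other cell types were detected at far lower sums than those of the fibre. The 12 fibre markers summed to 264873 ± 12843 TPM, and all of them were above 10 TPM in the mean. The 13 endothelial markers summed to 1117, 1405, 1375 and 1393 TPM, of which *Aqp1*, a water channel of capillaries, was 64.3%. Among the defining genes *Cdh5* (VE-cadherin) was at 76.1, 99.5, 103 and 121, *Pecam1* at 37, 45.8, 56.9 and 60.8 and *Kdr*, the main VEGF receptor, at 25.2, 34.9, 32.3 and 31.9 TPM. Replicate 1 was lowest in all of these, and on the CPM scale in 10 of the 13 genes, against 29.1% of all genes with at least 10 CPM. The 12 fibroblast markers summed to 704, 718, 1030.2 and 995 TPM, with replicates 3 and 4 above 1 and 2, and this held for *Dcn* with 57, 69.2, 90.1 and 96.4 and *Pdgfra*, the receptor that marks fibro-adipogenic progenitors, with 2.39, 2.58, 3.6 and 3.83 TPM. *Gsn*, which muscle also makes, supplied 32.1% of that sum. The smooth muscle and pericyte list owed 80.1% of its 2682 ± 276 TPM to *Des*, a gene of the fibre as well. *Rgs5*, a pericyte gene, was at 187, 252, 237 and 253, *Acta2* at 56.1, 75.9, 81.1 and 67.3 and *Myh11*, specific to smooth muscle, at 12.8, 15.7, 15.4 and 15.1 TPM.

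Nerve and junction genes were measurable. The Schwann cell list summed to 70.4, 89.6, 104 and 118 TPM, and all 4 of its genes with at least 10 CPM were lowest in replicate 1 and highest in replicate 4, against 29.1% and 19.7% of all genes at that level. *Chrne* was at 33.7, 32, 35 and 41.4 and *Ache* at 36, 33, 32 and 32.2 TPM, both known as products of the nuclei under the synapse, while the receptor kinase *Musk* was at 3.55, 2.38, 1.96 and 2.1 TPM. *Pax7*, the defining factor of satellite cells, was at 2.16, 3.22, 2.66 and 3.19 TPM. The satellite cell sum of 108 ± 7.06 TPM came mostly from *Itga7*, *Cdh15* and *Sdc4*, at 42.3, 21.5 and 19.8 TPM, of which *Itga7* is an integrin of the fibre itself. Tendon was represented by *Thbs4* at 53.5 ± 1.36 TPM, *Fmod* at 19.2 ± 4.72 TPM and *Tnmd*, its defining membrane protein, at 5.16, 4.55, 5.38 and 6.27 TPM. At the myotendinous junction *Itgb1bp2* made up 84% of the sum and *Col22a1*, its defining collagen, was at 15.9, 15.1, 11 and 12.2 TPM.

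Blood and immune cells contributed little. Macrophage markers summed to 47.1, 37.9, 79.7 and 73 TPM, with *Lyz2* at 17.1, 15.1, 30.8 and 26.6, *C1qa* at 7.34, 3.98, 12.5 and 11.7 and *Adgre1* (F4/80) at 0.762, 0.437, 1.31 and 0.93 TPM, and replicates 3 and 4 were above 1 and 2 in each. Class II genes of antigen presentation ran the same way, with *Cd74* at 17.5, 14.7, 32.6 and 37.6 TPM. *Ptprc* (CD45) was at 0.115, 0.0717, 0.269 and 0.169 TPM. The lymphocyte sum was 90.6% *Ighm*, at 67.2, 97, 73.7 and 93.6 TPM, although *Cd79a* and *Ms4a1*, which mark B cells, had at most 3 counts in a mouse, and *Cd3e*, *Cd4* and *Cd8a* of T cells at most 9. None of the 8 neutrophil genes in the table reached 1 TPM in the mean. Mast cell genes summed to 4.73, 3.29, 12 and 8.7 TPM and *Fcer1a* had no count. The globins, whose copies share sequence and are uncertain as single genes, gave *Hbb-bs* at 148, 208, 229 and 166 and *Hba-a1* at 24.9, 39.1, 41.6 and 28.6 TPM. Of the adipocyte list, 95.7% was *Car3*, which muscle makes. *Adipoq*, the defining adipokine, was at 1.91, 3.58, 4.0 and 2.64 TPM, *Plin1* at 0.429, 0.782, 0.631 and 0.477 TPM and *Fabp4*, shared with endothelium, at 98.3, 116, 129.8 and 119.6 TPM. Cartilage and bone summed to 16.3 ± 3.26 TPM, of which *Alpl* was 92.3%, while *Col10a1* and *Ibsp* had no count. In the epidermis list *Krt5*, *Krt14* and *Lor* had none, and the liver list summed to 4.19 ± 0.56 TPM.

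**Figure D4:**
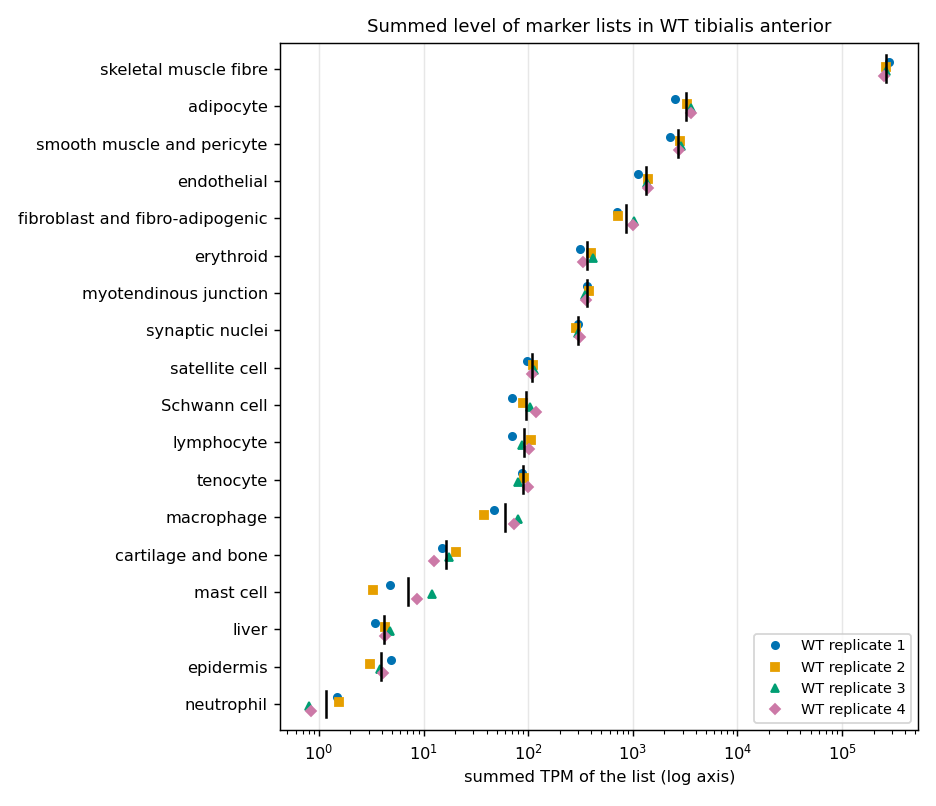
Summed TPM (log axis) of the marker list of each cell type, with a symbol for each WT mouse and a black line at the mean. The fibre list stands far above the others, and replicate 1 is the lowest mouse in the endothelial, smooth muscle and Schwann cell sums.

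Immediate early genes, which respond within minutes to stimuli, summed to 446, 564, 574 and 561 TPM, of which *Nr4a1* was 35.2% with 171, 226, 187 and 170.03 TPM. *Fos* was at 3.37, 4.99, 4.85 and 11.5 and *Egr1* at 10, 11.6, 16.9 and 26.9 CPM, both highest in replicate 4, and *Jun* at 28.6, 36.8, 33.7 and 35.1 CPM. Small heat shock proteins were abundant, with *Cryab* at 678, 1034, 772 and 857, *Hspb6* at 554, 778, 804 and 770.4 and *Hspb7* at 256, 824, 586 and 564 TPM, these 3 lowest in replicate 1. Of the 14 heat shock genes with at least 10 CPM, 7 were lowest in replicate 1 and 7 in replicate 4 on the CPM scale. The inducible *Hspa1a* and *Hspa1b*, near-identical copies whose levels are uncertain, stayed at 0.375 to 0.877 and 0.223 to 0.46 CPM. Of the genes tied to fasting and atrophy, *Txnip* was at 872, 716, 759 and 806 CPM and *Pdk4*, which spares glucose, at 554, 481, 459.8 and 630.1 CPM. The muscle ubiquitin ligases were lower in replicate 1, with *Fbxo32* (atrogin-1) at 72.8, 215, 169 and 202 and *Trim63* (MuRF1) at 158, 251, 271 and 272 CPM. Of the interferon genes *Isg15* and *Ifit1* were at 0.562, 1.19, 1.46 and 1.92 and 0.936, 1.04, 1.63 and 1.51 CPM.

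The spread between the 4 mice was small for most genes. It is given as the biological CV, which is the CV of CPM after the counting error has been taken off, and 0 where counting error alone is as large. Among the 7138 genes with a mean of at least 10 CPM the median was 6.66%, with 0.579% at the 10th and 14.9% at the 90th percentile. It was no larger than counting error in 690 genes (9.67%), over 20% in 299, over 30% in 79 and over 50% in 18. The common biological CV by edgeR, over a wider set of 13443 genes, was 11.5%, and 9.51% without replicate 1. Over the 7138 genes it was 10.3%. In the wider set the median biological CV was 7.61%. The median dispersion of single genes there, as a CV, was 11% by edgeR and 11.6% by DESeq2, so the typical spread depends on the measure. Replicate 1 lay farthest from the other 3 mice in 168 of the 299 genes over 20%, and in 38% of all 7138. It is also the deepest library, and whether depth plays a part was not tested.

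The 25 most variable genes, which are by choice those with the widest spread, are given by the mouse in which they were high or low. *Cish*, an inhibitor of cytokine signalling through STAT5, came first with 15.7, 4.29, 4.35 and 43.5 CPM. *Chac1*, a glutathione-degrading enzyme of the integrated stress response, was at 20.4, 12.4, 16.1 and 58.6 CPM, and *Pfkfb3*, which makes the activator of phosphofructokinase, at 259, 185, 184 and 519.9 CPM. *Egr1*, an immediate early gene, was at 10, 11.6, 16.9 and 26.9 CPM. In each of these 4 genes replicate 4 was the highest.

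Other genes were low in replicate 1. *Csrp3* (muscle LIM protein), known to respond to load, was at 19.7, 166, 127 and 61.8, the stretch-responsive *Ankrd2* at 30.8, 123, 105 and 44.6 and *Nmrk2*, an enzyme of NAD synthesis, at 19.6, 66.2, 85.1 and 48.7 CPM. *Igfn1*, a sarcomere-associated protein, was at 12, 27.1, 44.1 and 50.5 and *Mustn1* at 33.9, 97.4, 51.3 and 99 CPM. All 5 were lowest in replicate 1. The reverse, highest in replicate 1, was seen for *Actc1* with 8187, 3572, 2976 and 4463 CPM and its neighbour *C130080G10Rik*, for *Smox*, an enzyme that oxidises spermine, with 283, 144, 127 and 117 CPM, and for *Clu* (clusterin) with 60.3, 23.3, 29.7 and 24.6 CPM. It was also seen for *Npr3*, the clearance receptor of natriuretic peptides, with 49.1, 19.7, 27.9 and 18.2, for *Mettl21c*, a muscle methyltransferase, with 137, 60.5, 77.4 and 37.1, and for *Atp13a5* with 32.5, 9.65, 9.99 and 11.4 CPM. *Iigp1*, an interferon-inducible GTPase, *Hipk2*, *Slc30a2*, *Slc15a5* and *Mdga1* were likewise highest in replicate 1, at 36.5, 54.9, 39.8, 35.2 and 46.4 CPM. Without replicate 1 the biological CV of *Atp13a5*, *Smox* and *Mdga1* was 6.58, 10.6 and 10.7%, in place of 69.9, 46.2 and 45.1%. For *Csrp3* it was 44.5% in place of 69.9%.

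*Gm42418* and *Gm26917*, adjoining non-coding genes on chromosome 17 (GRCm38 chr17:39846958-39848788 and chr17:39843013-39846341), moved together. They were at 46.6, 22.4, 158 and 22.3 and 60, 17.9, 112 and 23.6 CPM, highest in replicate 3. The mitochondrial ribosomal RNAs were highest in that mouse as well, as given among the mitochondrial genes. Whether this reflects ribosomal RNA left in the library was not tested.

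The clock supplied *Dbp* and *Arntl* to the 25, and *Per3* was the next gene below the limit with a biological CV of 44.7%, while *Mdga1*, the last inside it, had 45.1%. *Arntl* (BMAL1), the activator at the centre of the circadian clock, was at 8.52, 26.6, 24.4 and 12.5 CPM. Some other clock genes ran the other way, and those named were chosen after their values were seen. *Dbp* was at 99.3, 18.9, 39.5 and 87.9, *Per3* at 46.7, 20.7, 23 and 51.5, *Per2* at 10.4, 1.86, 2.05 and 9.12, *Ciart* at 7.21, 0.894, 1.84 and 6.61 and *Tef* at 399, 274, 269 and 371 CPM. *Dbp* shares 27.5% of its windows, mainly with its neighbour *Sphk2*. Replicates 1 and 4 were high and replicates 2 and 3 low for these 5 genes without overlap, and *Arntl* with *Clock* (28.5, 36.1, 32.7 and 24.9 CPM), *Npas2* (0.773, 3.06, 2.21 and 0.753 CPM) and *Nfil3* (16.8, 24.3, 21.1 and 12.4 CPM) had the reverse. *Nr1d1* (REV-ERB alpha), also known as a target of BMAL1, did not share the pattern, with 146, 156, 154 and 167 CPM. Of the 15 clock genes with at least 10 CPM, 5 were highest in replicate 1, 5 in replicate 2, 0 in replicate 3 and 5 in replicate 4. The labels do not give the hour at which each muscle was taken.

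The 250 bases before the start of *Per3*, chosen after its values were seen, show the element through which DBP, TEF and HLF are known to act, the D-box TTATGTAA in capitals, at chr4:151044666-151044915 of GRCm38.p6, minus strand:
*Per3*: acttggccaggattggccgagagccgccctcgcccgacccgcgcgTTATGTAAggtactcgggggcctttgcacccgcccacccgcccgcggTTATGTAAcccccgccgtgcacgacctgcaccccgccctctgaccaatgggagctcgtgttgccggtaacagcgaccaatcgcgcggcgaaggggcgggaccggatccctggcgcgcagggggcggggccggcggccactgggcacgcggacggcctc
The D-box occurred there 2 times, beginning 205 and 158 bases before the start, and was found on either strand in 105 of 15716 (0.668%) of all promoters and in 1 of 16 (6.25%) of those of the clock list. The clock E-box CACGTG was in 5 of 16 (31.2%) of the clock promoters and in 1155 of 15716 (7.35%) of all.

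In the 11 libraries of the other groups, which the choice did not use, the same genes also spread widely within a group. The pooled within-group biological CV there had a median of 51.7% over the 25, against 11.9% over all 7138 genes, and 24 of the 25 were in the top 10%. The exception was *Mustn1*, at percentile 84.5. *Iigp1*, *Slc15a5* and *Ankrd2* were at 106, 104 and 94.1%. *Actc1* was at 84.2%, and *Cish*, the first in WT, at 58.5%. *Myh4*, with 26.3% in the WT mice, was at percentile 40.1 in the other groups.

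**Figure D5:**
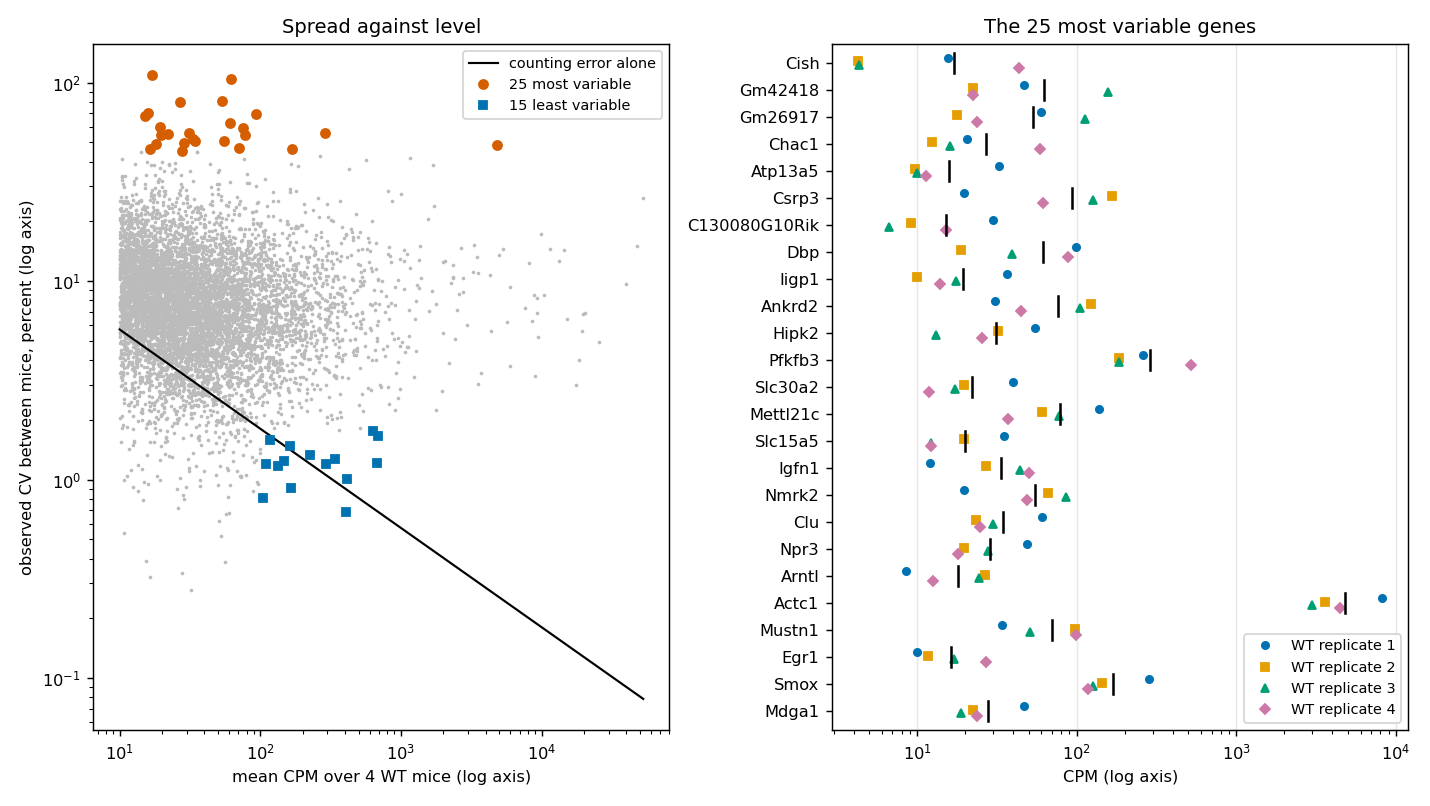
Left, observed CV between the 4 WT mice (percent) against mean CPM for genes with at least 10 CPM (both log axes), with the 25 most and 15 least variable genes marked and counting error alone as a line. Right, CPM (log axis) of the 25 most variable genes with a symbol for each mouse and a black line at the mean, where replicate 1 is the highest mouse in 13 genes and the lowest in 7.

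The 15 genes of least spread, taken among the 1057 genes with at least 100 CPM, had an observed CV of at most 1.76%, and the next gene, *Unc45b*, had 1.77%. *Sh3glb1* (endophilin B1) was first, with 406, 404, 406 and 399.7 CPM. *Ecsit*, an assembly factor of complex I, followed with 104, 105, 103 and 104 CPM and *Ncl* (nucleolin) with 162, 165, 166 and 165 CPM. The CVs of *Sh3glb1*, *Ecsit* and *Ncl* were 0.688, 0.808 and 0.906%, below the 0.898, 1.77 and 1.41% of counting error alone. The CVs of *Lonp1*, *Gdi2*, *Grsf1* and *Rab1b* were below counting error as well, so the order among these genes is not resolved. Genes of mitochondrial metabolism in the 15 were *Got1*, the cytosolic transaminase of the malate-aspartate shuttle, *Lonp1* (a matrix protease), *Grsf1* (an RNA-binding protein of the matrix), *Uqcrc2* and *Ndufs1* (subunits of complexes III and I). They were at 412 ± 4.14 CPM, 135 ± 1.57 CPM, 146 ± 1.82 CPM, 688 ± 11.4 CPM and 628 ± 11.1 CPM. The others were the trafficking genes *Gdi2* and *Rab1b*, the lysosomal protease *Ctsb*, *Slc44a2*, *Ptp4a2*, *Pla2g16* and *Tsc22d3*, a target of the glucocorticoid receptor, at 162 ± 2.4 CPM. In the other 11 libraries 5 of the 15 were in the lower 50% of genes by within-group spread, and their median there was 13.9%. *Tsc22d3* was at 35.9% and *Got1* at 24.4%, *Ctsb* at 4.68% and *Lonp1* at 6.41%.

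Genes in common use as references for normalisation ranged widely. The biological CV of the 26 of 30 with at least 10 CPM had a median of 5.91%. *Canx*, *Hprt* and *Csnk2a2* were as steady as counting error allows, with 99.5, 101, 99 and 98.1 CPM for *Canx*, 22.1, 22.1, 22.4 and 23.4 CPM for *Hprt* and 16, 17, 16 and 17.3 CPM for *Csnk2a2*. *Rps18*, which shares 33.6% of its windows with other genes, was at 0.844%, and *Alas1*, *Hsp90ab1* and *Sdha* were at 1.83, 2.16 and 2.51%. *Actb* was at 7.82% and *B2m* at 14.4%. *Gapdh* was at 18.7% with 29.1, 24.4, 20 and 19.7 CPM, and it shares 27.8% of its windows with other genes. *Ppia* had a mean of 1.79 CPM, under the limit of 10 CPM.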

How the data were processed

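Libraries of tibialis anterior muscle were made with the TruSeq Stranded mRNA kit from RNA isolated with TRI Reagent. The authors deposited raw counts per gene for 15 libraries, of which 4 (untreated WT) are described. In the processing notes of the submitters STAR 2.5.3a, HTSeq 0.6.1p1, cutadapt 1.10 and Bowtie2 2.2.8 are listed, and as builds mm10 and GRCm38, without their roles. What annotation and strand setting were used, and how reads matching several genes were treated, is not given in those sources.

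From the counts, CPM were scaled by TMM factors of the 4 libraries (edgeR 4.0.16 and limma 3.58.1 in R 4.3.3), and TPM were computed with exon lengths from GENCODE M21. All 30672 gene identifiers matched. The remaining steps used Python 3.11.15, pandas 2.3.3 and NumPy 2.4.6, and DESeq2 1.42.0 served as an alternative. Genes kept by filterByExpr (minimum count 10) numbered 13443. The biological CV is the square root of the variance of CPM less the counting variance, over the mean. It was tested on simulated data. Some members of the lists are not reported here. Shared windows are the percent of 50-base windows of a gene's longest transcript that occur on either strand in a transcript of another gene. Named are the 25 genes highest in TPM and the 10 with the most counts, members of 47 gene lists that lead a list, define it or are near 0, the 25 most variable genes at 10 CPM or more, the 15 least variable at 100 CPM or more, the reference genes, and *Mtm1*. Genes outside this rule, such as *Per3*, were chosen after their values were seen. The members and lists were chosen with earlier results of these data known. No group was compared, and the sole test was Dixon's rule for a mouse that stands apart. Alternatives were other lengths, denominators, scaling factors, filters and dispersions, and leaving out each replicate. Counting error alone is covered by the limit of 3 counts.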

Additional observations from a re-analysis of the deposited data

Results flagged for a closer look

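Of 117 sets of 4 values examined, 9 (7.69%) held a mouse that stood apart, with a gap to the nearest other mouse that exceeded Dixon's critical value for 4 samples. Chance flags about 1 in 20 independent sets, but these sets overlap and include genes chosen for a wide or a narrow spread, so that rate is no reference for the number found. Replicate 1 was that mouse in 7 of the 9. It was high in the summed level of the fast fibre genes, with 292774 TPM against 268146 in the nearest mouse, and in *Pvalb*, the calcium buffer of fast fibres, with 33383 against 28788 TPM. It was also high in *Atp13a5* with 32.5 against 11.4 CPM and in *Smox* with 283 against 144 CPM. Its summed level of immediate early genes was low, with 446 against 561 TPM, as was that of endothelial genes with 1117 against 1375 TPM. The flags of these sums, of the fast fibre sum and of *Pvalb* were taken in TPM alone. TPM are shares, so these flags depend on the scale. In CPM *Pvalb* was at 13856, 11053, 10352.5 and 10393, a smaller gap relative to its range. Replicate 3 stood apart in the share of the creatine and adenine nucleotide genes, with 3.24 against 3.12% of counts. Among the least variable genes, where all gaps are small, *Gdi2* was low in replicate 1 with 108 against 111 CPM and *Ptp4a2* high in replicate 3 with 685 against 669.5 CPM.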

How the results depend on the processing

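No paired analysis was possible because a single group was described and no groups were compared. Of 147 values of main results under an alternative, 117 moved by less than the spread between mice (counts of genes by less than 1.5 times) and 30 moved by more. For single genes these numbers were 164 and 36. When a mouse is left out, the mean of a share or of a summed level cannot move by as much as the spread. Such values are among the 117 by construction and do not show stability. As percent of TPM in place of counts, the contractile lists held 30.3, excitation-contraction coupling 7.94, the mitochondrial genome 17.6, the nuclear mitochondrial lists 6.42, glycolysis with glycogen 6.39 and ribosomal proteins 0.525%. With the longest transcript as length they held 30.9, 6.86, 14.4, 7.31, 7.21 and 0.583%, and the creatine list 2.76%. Without the mitochondrially encoded genes in the total, the shares of counts were 30.2 (contractile), 8.15 (excitation-contraction), 6.24 (nuclear mitochondrial), 6.71 (glycolysis with glycogen), 3.41 (creatine) and 0.336% (ribosomal). The *Myh7* share was 0.00321% with the longest transcript. Leaving out a mouse at a time, the common biological CV was 9.51 to 12.4% and the median biological CV 5.09 to 6.8%, both lowest without replicate 1. Of the 25 most variable genes, 8 were shared with the list without a CPM minimum and 11 with that at 50 CPM or more, and 11 to 23 when a mouse was left out, with the low end without replicate 1. Of the 15 least variable, 0 were shared when library size alone scaled the counts, and 2 to 6 when a mouse was left out, so the names in that list rest on the scaling and on each mouse.

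The number of mice limits every spread given here, and genes of low level have a spread set largely by counting error. Levels of genes that share sequence with other genes depend on counting rules that the labels do not give.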

Other observations

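Several further genes of the fibre differed between the mice. *Flnc* (filamin C), a Z-disc protein tied to repair of the sarcomere, was at 913, 1894, 1005 and 866 CPM and highest in replicate 2. *Ppp1r3c*, which targets a phosphatase to glycogen, was at 254, 364, 338 and 111 CPM and lowest in replicate 4. *Sypl2* (mitsugumin 29), a protein of the triad, was at 1156, 732, 669.9 and 693 CPM and highest in replicate 1. *Cdkn1a* (p21), a cell cycle inhibitor, was at 17.8, 41.4, 54.2 and 28.4 CPM and lowest in replicate 1.

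Whole lists also leaned to single mice on the CPM scale. Of the 40 ribosomal protein genes with at least 10 CPM, 32 were highest in replicate 1, and of the 76 nuclear respiratory chain genes 44 were highest in replicate 3 and 44 lowest in replicate 2. Over all genes with at least 10 CPM, 33% were highest in replicate 1, 22.7% highest in replicate 3 and 17.3% lowest in replicate 2.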
